A study of Mus musculus with 12 samples.

Results

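The 10 genes described here carry the retinoic acid signal and the KIT signal that take spermatogonia from self-renewal into differentiation: Kit, Kitl, Sohlh1, Sohlh2, Dmrtb1, Rara, Stra8, Aldh1a1, Aldh1a2 and Cyp26b1. They were picked out of the table by gene symbol, with earlier results of these data known, and are 10 of the 20718 genes measured. RNA of mouse testis was sequenced in 12 libraries, 3 in each of 4 groups, to ask what the long noncoding RNA lncRNA5251 does in spermatogenesis. The labels give the strain as IRC mouse, and the study's methods name it ICR. In every group lentivirus had been injected into the testes of males aged 4 weeks, which were raised for 5 weeks to an age of 9 weeks, mated for 4 days and kept for 4 days more. The F0_5251KD group received 3 short hairpin RNAs against lncRNA5251 in the vector LV3, and the F0_3NC group received the LV3 control virus. The F0_5251OV group received lncRNA5251 in the vector LV5, and the F0_5NC group received the LV5 control virus. All 4 groups therefore carry a lentiviral vector, the labels name no cell type at which it was aimed, and no uninjected group was analysed here. lncRNA5251 has no entry of its own in the table, so its knockdown and overexpression were not checked here.

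Retinoic acid is made from retinal by the ALDH1A enzymes and removed by the CYP26 enzymes. It acts on nuclear receptors, of which RARA is the main one in testis, and it brings on both the differentiation of spermatogonia and, with STRA8, the entry of germ cells into meiosis. The receptor tyrosine kinase KIT appears on differentiating spermatogonia and also on Leydig cells, and its ligand, the product of Kitl, comes from Sertoli cells. SOHLH1 and SOHLH2 are helix-loop-helix factors of differentiating spermatogonia, and DMRTB1 (also called DMRT6) acts at the passage from spermatogonium to spermatocyte.

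In RefSeq coordinates of GRCm38.p6, the receptor gene Kit lies at chr5:75574987-75656722 (plus strand), and its ligand gene Kitl at chr10:100015615-100100416 (plus strand). Sohlh1 lies at chr2:25842995-25847248 (minus strand), Sohlh2 at chr3:55182044-55209957 (plus strand) and Dmrtb1 at chr4:107676288-107704011 (minus strand). Rara lies at chr11:98927800-98974942 (plus strand) and Stra8 at chr6:34920163-34939344 (plus strand). The enzyme genes are Aldh1a1 at chr19:20492583-20643463 (plus strand), Aldh1a2 at chr9:71215789-71296243 (plus strand) and Cyp26b1 at chr6:84571414-84593908 (minus strand). Values are per gene, over its exons.

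Stra8 is the textbook direct target of retinoic acid, so the promoters were searched for AGGTCA, the core element bound by retinoic acid receptors, on either strand. RefSeq (GRCm38.p6) promoter windows, from 250 bases before to 50 bases after a transcript's start, were found for 10 of the 10 genes and numbered 16, because several genes have more than 1 annotated transcript start. Distances below are to the start of the transcript that placed the window, which lies at base 34920948 for Stra8 and base 98964872 for Rara, both inside the gene as delimited above, and at base 25847248 for Sohlh1. The element was found in 3 of these 16 windows, against 16.3% of all 32851 windows. The Stra8 window held it at 2 places, and 1.81% of all windows held it at 2 or more. The stretches around each occurrence, on the strand of the gene, are shown with the element in capitals because they are the only matches among the 10 genes.
Stra8, chr6:34920742-34920771, plus strand, element starting 194 bases before that start: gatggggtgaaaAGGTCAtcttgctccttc
Stra8, chr6:34920898-34920927, plus strand, element starting 38 bases before that start: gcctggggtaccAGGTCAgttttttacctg
Sohlh1, chr2:25847446-25847475, minus strand, element starting 215 bases before that start: tgggctgtgatcAGGTCAcgtggtctgaag
Rara, chr11:98964893-98964921, plus strand, element starting 33 bases after that start: gcagattgcagcAGGTCAgtcctttggac
In the Sohlh1 stretch the last 2 letters of the element are also the first letters of CACGTG, an E-box of the kind that helix-loop-helix factors bind. CACGTG was present in 3 of the 16 windows, of Rara and Sohlh1, and in 7.15% of all windows. The Rara windows chr11:98937446-98937745 and chr11:98937468-98937767 overlap, so 1 site could be counted in both. These are letter matches and no binding was measured here.

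Levels are given as FPKM, a read number scaled to transcript length and to library size, which allows genes of different length to be compared. Aldh1a1 and Dmrtb1 were the most abundant of the 10 genes, with medians over the 12 libraries of 367 and 366 FPKM, and by their means above 99.1% and 98.9% of all genes in the table. Aldh1a2 followed with 53.9 FPKM. The other 7 genes lay close together between 7.25 FPKM for Stra8 and 3.26 FPKM for Sohlh1, with Kit at 6.75, Sohlh2 at 5.71, Cyp26b1 at 5.36, Rara at 5.2 and Kitl at 3.65 FPKM. In this order Aldh1a1 and Dmrtb1 overlapped in their library values, Aldh1a2 stood clear of its neighbours, and each of the lower 7 overlapped with the next. Estimated counts ran from 29 to 79 for Sohlh1 up to 7706 to 19637 for Aldh1a1 per library, so counting error was 13.3% of the mean count for Sohlh1, 4.93% for Cyp26b1, 4.38% for Kit and 0.93% for Aldh1a1. The spread between libraries of 1 group was smallest for Aldh1a2 (coefficient of variation 5.37%) and Dmrtb1 (8.07%) and largest for Kitl (29.4%) and Aldh1a1 (29.0%), in both of which it was far above the counting error of 5.26% and 0.93%.

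**Figure D1:**
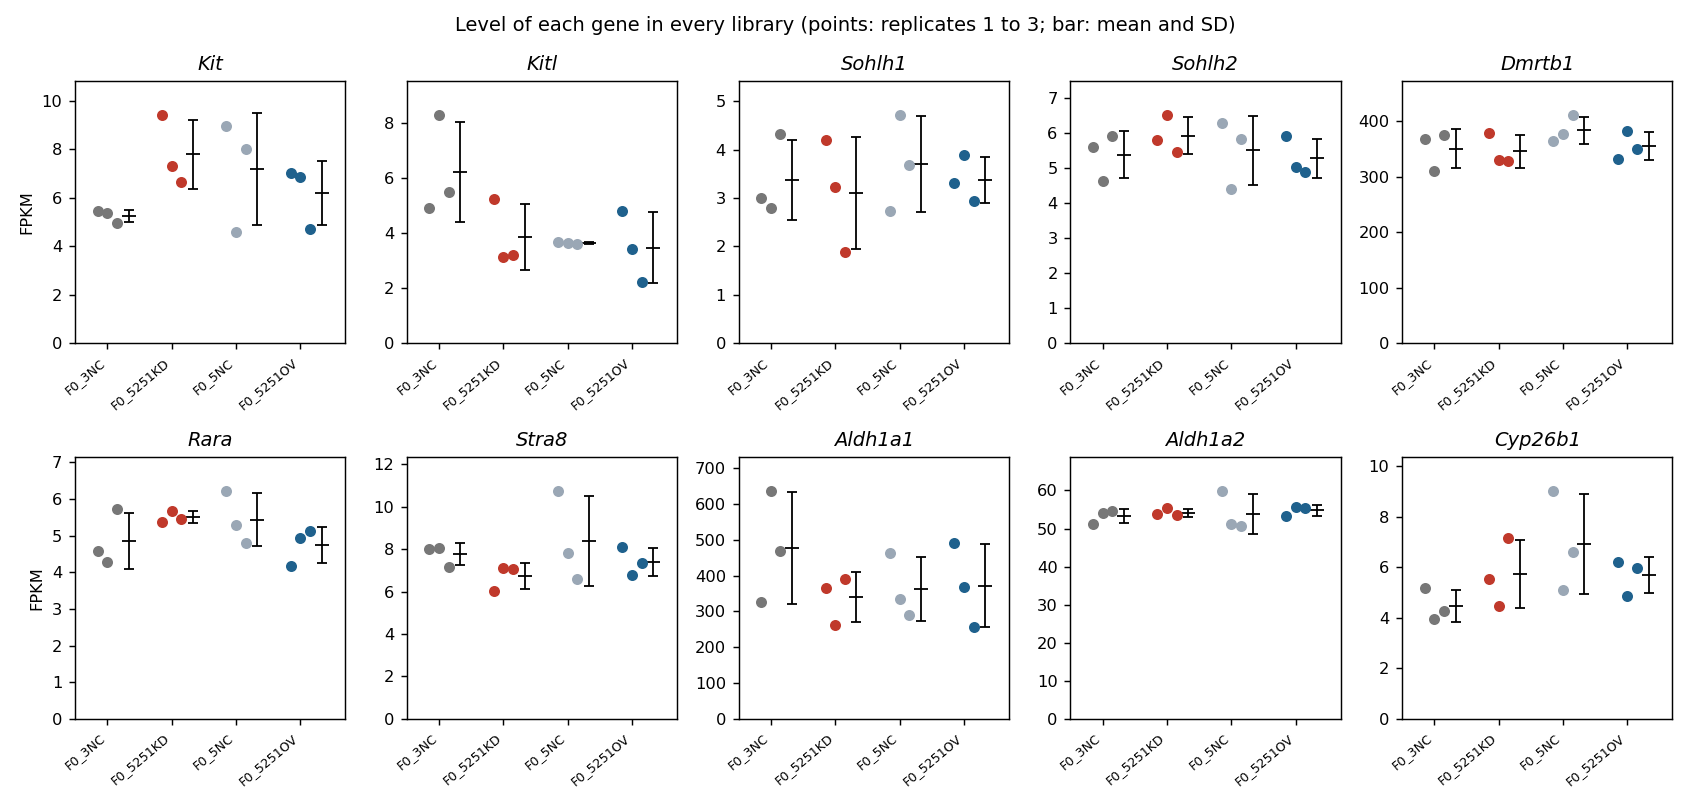
Level in FPKM (vertical axis, linear, from 0) of each of the 10 genes in the 12 libraries, grouped as F0_3NC, F0_5251KD, F0_5NC and F0_5251OV. Points are libraries, and the bar beside them is the mean with its SD (n = 3). The 3 Kit points of F0_5251KD (6.66 to 9.40) lie above the 3 of F0_3NC (4.97 to 5.45), whereas the groups of Aldh1a2 all lie between 50.65 and 59.87.

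The 12 libraries held between 15431383 and 16355720 estimated counts and 18597 to 18711 genes with at least 1 count, so depth differed little. F0_3NC replicate 2, F0_5NC replicate 1 and F0_5251OV replicate 1 stood apart from the other libraries of their groups across all genes. The tissue label was matched by the summed FPKM of marker lists, which was 4467 to 4801 for spermatocytes, 1534 to 1811 for round spermatids and 835 to 1552 for Sertoli cells. Differences were tested with edgeR's quasi-likelihood test in 1 fit of all libraries, with Benjamini-Hochberg adjustment over the 16296 genes that passed the filter on low counts, and a gene was called at an adjusted p under 0.05. All 10 genes passed that filter. The labels do not say whether the libraries of a group come from separate animals, so the p-values measure only the spread between these libraries. In whole testis, fewer cells of a type and less RNA per cell cannot be told apart.

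Knockdown of lncRNA5251 was compared with its vector control to ask whether the differentiation genes depend on it. The largest values were those of the receptor and its ligand, with Kit 1.46-fold higher and Kitl at 0.614 of the control, and none of the 10 genes was called in F0_5251KD against F0_3NC. Over all genes tested, 0.0245% were called. Of the 10 genes, 5 were higher and 5 lower, with a median log2 fold change of 0.0 against -0.004 over all genes, and a range from -0.70 to 0.55. At an unadjusted p under 0.05 there were 2 of the 10, Kit and Kitl, against 4.74% of all genes, and the CPM values (counts scaled to library size) of 2 of the 10, Kit and Stra8, did not overlap between the groups, against 11.8% of all genes.

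Kit measured 5.45, 5.35 and 4.97 FPKM in the 3 F0_3NC libraries and 9.40, 7.29 and 6.66 FPKM in the 3 F0_5251KD libraries. All 3 knockdown libraries were thus above all 3 controls, with means of 5.26 ± 0.253 and 7.78 ± 1.44 FPKM (SD, n = 3). The fitted log2 fold change was 0.55 (SE 0.201, 95% interval 0.12 to 0.98, unadjusted p = 0.0167, edgeR adjusted p = 0.897). Without F0_5251KD replicate 1, the highest library, the value was 0.40 and the unadjusted edgeR p was 0.0892.

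For the ligand the order was the opposite. Kitl measured 4.89, 8.27 and 5.47 FPKM in F0_3NC and 5.22, 3.14 and 3.19 FPKM in F0_5251KD. Here 1 knockdown library lay among the controls, and the control mean of 6.21 ± 1.81 FPKM owed much to replicate 2 (knockdown mean 3.85 ± 1.19 FPKM, SD, n = 3). The log2 fold change was -0.70 (SE 0.252, 95% interval -1.25 to -0.16, unadjusted p = 0.0151, edgeR adjusted p = 0.897). Without F0_3NC replicate 2 it was -0.46, with an unadjusted edgeR p of 0.0913.

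The ratio of Kit to Kitl in FPKM, looked at after the values of both were known and therefore given without a test, was 1.11, 0.647 and 0.909 in F0_3NC and 1.80, 2.32 and 2.09 in F0_5251KD. It was 2.44, 1.26 and 2.22 in F0_5NC and 1.46, 2.01 and 2.12 in F0_5251OV. The F0_3NC libraries were thus the lowest of the 12, and the knockdown libraries lay in the range of the LV5 groups.

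Stra8, the gatekeeper of meiotic entry whose promoter stretches are shown above, measured 8.03, 8.08 and 7.17 FPKM in F0_3NC and 6.01, 7.12 and 7.06 FPKM in F0_5251KD. The groups did not overlap, but the nearest libraries were 7.17 and 7.12 FPKM, and the log2 fold change of -0.23 (95% interval -0.55 to 0.09) had an unadjusted p of 0.145 in edgeR. The receptor gene Rara measured 4.57, 4.28 and 5.72 FPKM in F0_3NC and 5.38, 5.68 and 5.46 FPKM in F0_5251KD. F0_3NC replicate 3 was the highest of these 6 libraries, and the log2 fold change was 0.17 (95% interval -0.14 to 0.48).

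Aldh1a1 encodes the retinal dehydrogenase of Sertoli cells. It measured 324.78, 635.96 and 467.49 FPKM in F0_3NC and 366.00, 260.93 and 391.33 FPKM in F0_5251KD, so the groups overlapped and F0_3NC replicate 2 was the highest of all 12 libraries. The log2 fold change was -0.50 (SE 0.246, 95% interval -1.03 to 0.03, unadjusted p = 0.0638, edgeR adjusted p = 0.897), and it was -0.25 without F0_3NC replicate 2. Aldh1a2, the corresponding enzyme of spermatocytes, measured 51.12, 54.02 and 54.69 FPKM in F0_3NC and 53.70, 55.39 and 53.49 FPKM in F0_5251KD. Its log2 fold change of 0.01 had a 95% interval of -0.13 to 0.16, which is 0.913 to 1.11 of the control as a fold.

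Cyp26b1, which degrades retinoic acid, measured 5.16, 3.96 and 4.28 FPKM in F0_3NC and 5.55, 4.46 and 7.14 FPKM in F0_5251KD. The groups overlapped, and the log2 fold change was 0.34 (SE 0.19, 95% interval -0.07 to 0.75, edgeR adjusted p = 0.897). Without F0_5251KD replicate 3, the highest of these libraries, it was 0.14. Among the transcription factors, Sohlh2 measured 5.61, 4.63 and 5.91 FPKM in the controls and 5.81, 6.51 and 5.46 FPKM after knockdown, a log2 fold change of 0.12 (95% interval -0.18 to 0.43). Sohlh1 measured 2.99, 2.80 and 4.32 FPKM and 4.20, 3.22 and 1.89 FPKM, and the 95% interval of its log2 fold change was wide, at -0.77 to 0.65. The transcript length implied by its count and FPKM varied between 852 and 1162 bases over the libraries, so that FPKM and count can order libraries differently for Sohlh1. Dmrtb1 measured 367.83, 309.50 and 374.23 FPKM and 378.66, 329.29 and 327.89 FPKM, with a log2 fold change of -0.02 and a 95% interval of -0.25 to 0.22.

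**Figure D2:**
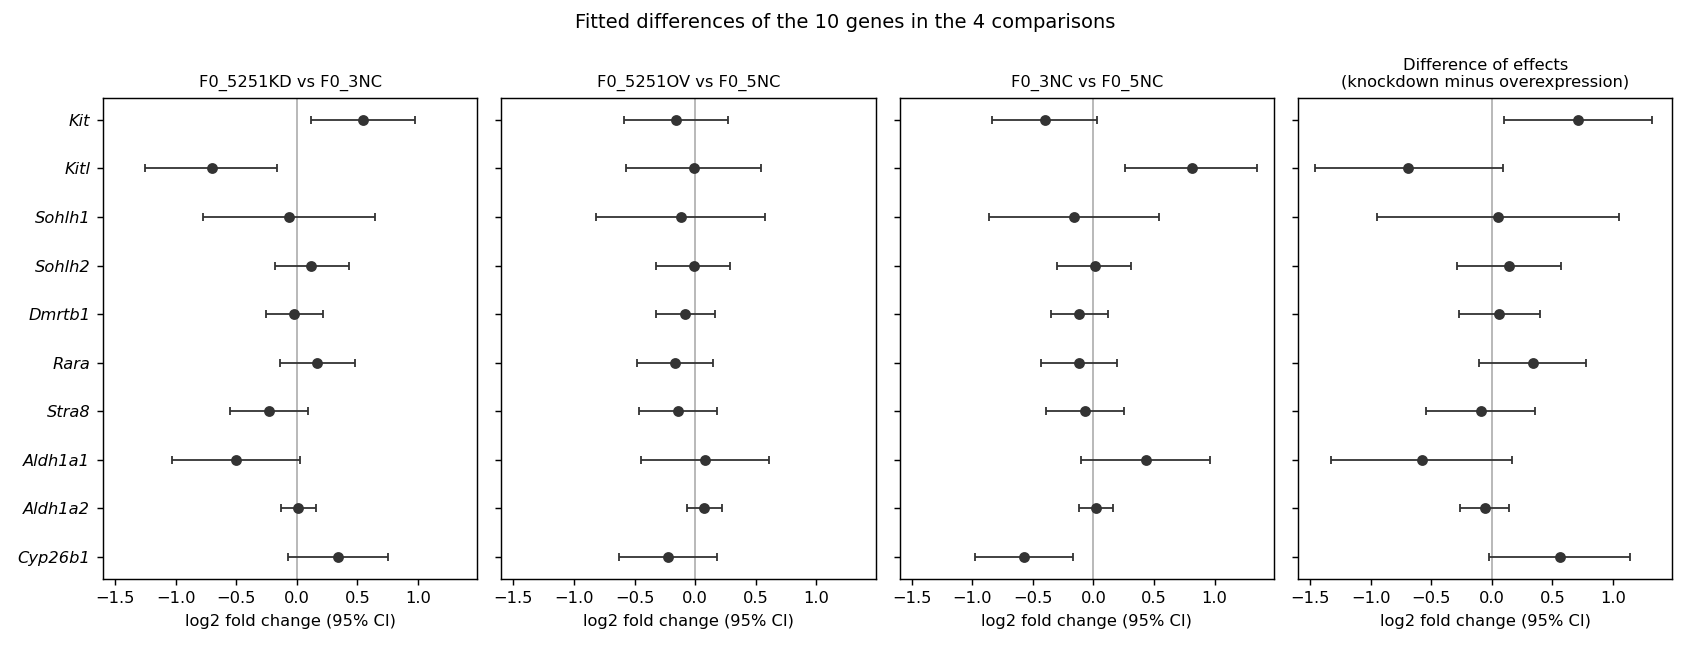
Fitted log2 fold change (horizontal axis) with its 95% confidence interval for each of the 10 genes in F0_5251KD against F0_3NC, F0_5251OV against F0_5NC, F0_3NC against F0_5NC, and the difference of the first 2 effects. The interval leaves 0 out for Kit and Kitl after knockdown, for Kitl and Cyp26b1 between the controls and for Kit in the difference, and none of these was called after adjustment over all genes.

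Overexpression of lncRNA5251 was compared with the LV5 control to ask the same question in the opposite direction. All 10 genes stayed near their control levels, with log2 fold changes from -0.22 for Cyp26b1 to 0.08 for Aldh1a1, and library values that overlapped between the groups for each of them. None of the 10 was called in F0_5251OV against F0_5NC by edgeR, and 0.0% of all genes were. At an unadjusted p under 0.05 there were 0 of the 10, against 8.77% of all genes, and 13.9% of all genes had groups that did not overlap. DESeq2 called none of the 10 and 27 of all 20718 genes. Of the 10, 2 were higher and 8 lower, with a median of -0.10 against -0.002 over all genes.

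Kit measured 8.97, 4.57 and 7.99 FPKM in F0_5NC and 7.03, 6.85 and 4.69 FPKM in F0_5251OV. Each group had 1 low library, and the means were 7.18 ± 2.31 and 6.19 ± 1.3 FPKM (SD, n = 3). The log2 fold change was -0.16 with a 95% interval of -0.59 to 0.27, so the data leave room for values between 0.665 and 1.21 of the control. Kitl was 3.68, 3.62 and 3.6 FPKM in F0_5NC, the tightest of its groups, and 4.8, 3.40 and 2.21 FPKM in F0_5251OV. The overexpression libraries thus lay on both sides of the controls, and the log2 fold change was -0.01 (95% interval -0.57 to 0.54).

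Stra8 measured 10.75, 7.80 and 6.60 FPKM in F0_5NC and 8.09, 6.77 and 7.34 FPKM in F0_5251OV. F0_5NC replicate 1 was the highest of the 12 libraries, and the log2 fold change was -0.14 (95% interval -0.46 to 0.18). Rara measured 6.22, 5.28 and 4.8 FPKM in the controls and 4.18, 4.93 and 5.12 FPKM with overexpression, a log2 fold change of -0.17 (95% interval -0.48 to 0.15). Cyp26b1 measured 9.02, 5.11 and 6.60 FPKM and 6.19, 4.87 and 5.99 FPKM, again with F0_5NC replicate 1 the highest of all libraries. Its log2 fold change was -0.22 (95% interval -0.63 to 0.18), and -0.04 without that library.

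Of the enzymes that make retinoic acid, Aldh1a1 measured 463.18, 334.41 and 291.07 FPKM in F0_5NC and 490.04, 367.67 and 257.27 FPKM in F0_5251OV. Both groups spanned nearly the same range, and the 95% interval of the log2 fold change was -0.45 to 0.61. Aldh1a2 measured 59.87, 51.06 and 50.65 FPKM and 53.17, 55.65 and 55.44 FPKM, with a log2 fold change of 0.07 (95% interval -0.07 to 0.22). Sohlh1 measured 2.73, 4.71 and 3.69 FPKM in F0_5NC and 3.30, 3.88 and 2.93 FPKM in F0_5251OV, with a log2 fold change of -0.12 (95% interval -0.82 to 0.58). Sohlh2 measured 6.28, 4.40 and 5.83 FPKM and 5.91, 5.03 and 4.90 FPKM, with a log2 fold change of -0.01 (95% interval -0.32 to 0.29). Dmrtb1 measured 363.45, 376.91 and 410.57 FPKM and 331.86, 382.29 and 349.74 FPKM, with a log2 fold change of -0.08 (95% interval -0.32 to 0.16). For these factors the overexpression libraries lay within or close to the range of the controls.

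The control groups were compared with each other because each effect above is read against its own vector. Between F0_3NC and F0_5NC the ligand gene Kitl and the degrading enzyme gene Cyp26b1 had the largest values of the 10, in opposite directions, and neither was called. None of the 10 genes was called, and 0.331% of all genes were. At an unadjusted p under 0.05 there were 2 of the 10, against 11.9% of all genes, and the same genes were the 2 of the 10 whose groups did not overlap in CPM, against 17.0% of all genes. Kitl was 1.75-fold higher in F0_3NC (log2 fold change 0.81, SE 0.253, 95% interval 0.26 to 1.35, unadjusted p = 0.00689, edgeR adjusted p = 0.291), with library values of 4.89 to 8.27 against 3.6 to 3.68 FPKM. Cyp26b1 was at 0.672 of the F0_5NC level (log2 fold change -0.57, SE 0.189, 95% interval -0.98 to -0.17, unadjusted p = 0.00942, edgeR adjusted p = 0.309), with 3.96 to 5.16 against 5.11 to 9.02 FPKM, ranges that did overlap slightly on the FPKM scale. Without F0_3NC replicate 2, F0_5NC replicate 1 and F0_5251OV replicate 1, the log2 fold changes were 0.53 and -0.31.

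Kit had a log2 fold change of -0.40 between the controls (95% interval -0.84 to 0.03, edgeR adjusted p = 0.443), and Aldh1a1 one of 0.43 (95% interval -0.10 to 0.96). The F0_3NC libraries enter both this comparison and that of the knockdown. The knockdown means of Kit (7.78 ± 1.44 FPKM), Kitl (3.85 ± 1.19 FPKM) and Aldh1a1 (339 ± 69.1 FPKM) stood closer to the F0_5NC means (7.18 ± 2.31, 3.63 ± 0.0416 and 363 ± 89.5 FPKM) than to those of F0_3NC (5.26 ± 0.253, 6.21 ± 1.81 and 476 ± 156 FPKM), each with SD and n = 3. These genes had the largest knockdown changes of the 10. Those of Stra8 (6.73 FPKM), Dmrtb1 (345) and Sohlh1 (3.1) stood closer to the F0_3NC means (7.76, 351 and 3.37) than to the F0_5NC means (8.38, 384 and 3.71). The knockdown means of Sohlh2, Rara, Aldh1a2 and Cyp26b1 stood closer to F0_5NC. Vector LV3 or LV5 and whatever else differed between the sets of animals that received these vectors cannot be told apart in these samples. The summed level of 6 markers of the epididymis, the duct beside the testis, also differed between these groups. It was 4.32 to 9.82 FPKM in F0_3NC, 2 to 4.08 in F0_5251KD, 18.7 to 104 in F0_5NC and 5.76 to 67.5 in F0_5251OV. Crisp1 made up 64.6% of this sum. Not all of these markers differed, and Rnase10 had means of 2.89 FPKM in F0_3NC and 3.17 in F0_5NC. Lcn9, Adam28 and Spint4 were too low to be tested. The part of this tissue in the control values was not tested.

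The difference between the knockdown effect and the overexpression effect, which share no library, was tested as an interaction. None of the 10 genes was called, nor was any of all genes tested (0.0%), and 1 of the 10 had an unadjusted p under 0.05 against 11.3% of all genes. That gene was Kit, with a difference of 0.71 on the log2 scale (SE 0.283, 95% interval 0.10 to 1.32, unadjusted p = 0.0262, edgeR adjusted p = 0.42). Kitl had a difference of -0.69 (95% interval -1.46 to 0.09), Aldh1a1 of -0.58 (-1.33 to 0.17), Cyp26b1 of 0.56 (-0.02 to 1.14) and Rara of 0.34 (-0.11 to 0.78). For the other 5 genes the difference lay between -0.09 and 0.14. DESeq2 called none of the 10 in the interaction and 31 of all genes.

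Several of the high and low values of the 10 genes fell in libraries whose marker sums also departed from the rest. Kit was highest in F0_5251KD replicate 1 (9.40 FPKM) and F0_5NC replicate 1 (8.97 FPKM), and the summed level of 9 Leydig cell markers was 3914 and 4528 FPKM in these libraries against 1785 to 2609 FPKM in the other 10. The Leydig sum was 2348 to 2463 FPKM in F0_3NC, 2301 to 3914 in F0_5251KD, 2191 to 4528 in F0_5NC and 1785 to 2576 in F0_5251OV. After knockdown 7 of the 9 Leydig markers were higher and none was called. All 9 were detected in every library, and Insl3, a Leydig cell hormone, made up most of the sum. Insl3 measured 2911.3 FPKM in F0_5251KD replicate 1, 3541.05 in F0_5NC replicate 1 and 1322.2 to 1847.57 in the other libraries. Of the other markers, Star was highest in F0_3NC replicate 2 (101.23 FPKM) and Hsd3b6 in F0_5NC replicate 3 (56.32 FPKM). Each of the rest was highest in F0_5251KD replicate 1 or F0_5NC replicate 1. Without F0_5251KD replicate 1 the log2 fold change of Kit was 0.40, as given above. The part of these cells in the Kit values was not tested.

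Cyp26b1 and Stra8 were highest in F0_5NC replicate 1, at 9.02 and 10.75 FPKM, where the sum of 15 Sertoli cell markers was 1552 FPKM against 835 to 1085 in the other 11 libraries. By group this sum was 835 to 1035 FPKM in F0_3NC, 952 to 1085 in F0_5251KD, 999 to 1552 in F0_5NC and 929 to 992 in F0_5251OV. The Leydig cell, macrophage and endothelium sums were also the highest of the 12 in F0_5NC replicate 1 (4528, 58.6 and 9.12 FPKM). Cyp26b1 was next highest in F0_5251KD replicate 3 (7.14 FPKM), where the Sertoli cell sum was 952 FPKM. The part of these sums in the Cyp26b1 and Stra8 values was not tested. Without F0_5NC replicate 1 the value of Cyp26b1 between the controls was -0.39. Aldh1a1 was highest in F0_3NC replicate 2 and F0_5251OV replicate 1 (635.96 and 490.04 FPKM), and Kitl was the highest of its group in the same libraries (8.27 and 4.8 FPKM). In these libraries the sum of 16 genes of meiotic entry was 879 and 850 FPKM, against 656 to 726 in the others. The genes of that list did not move as 1. Sycp1 had its highest values of the 12 libraries there (75.44 and 79.68 FPKM), whereas Rec8 had its lowest (27.65 and 29.94 FPKM). The Sertoli cell sum was 835 FPKM in F0_3NC replicate 2 and 929 FPKM in F0_5251OV replicate 1, against 926 to 1552 FPKM in the others. The part of either sum in the Aldh1a1 and Kitl values was not tested.

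**Figure D3:**
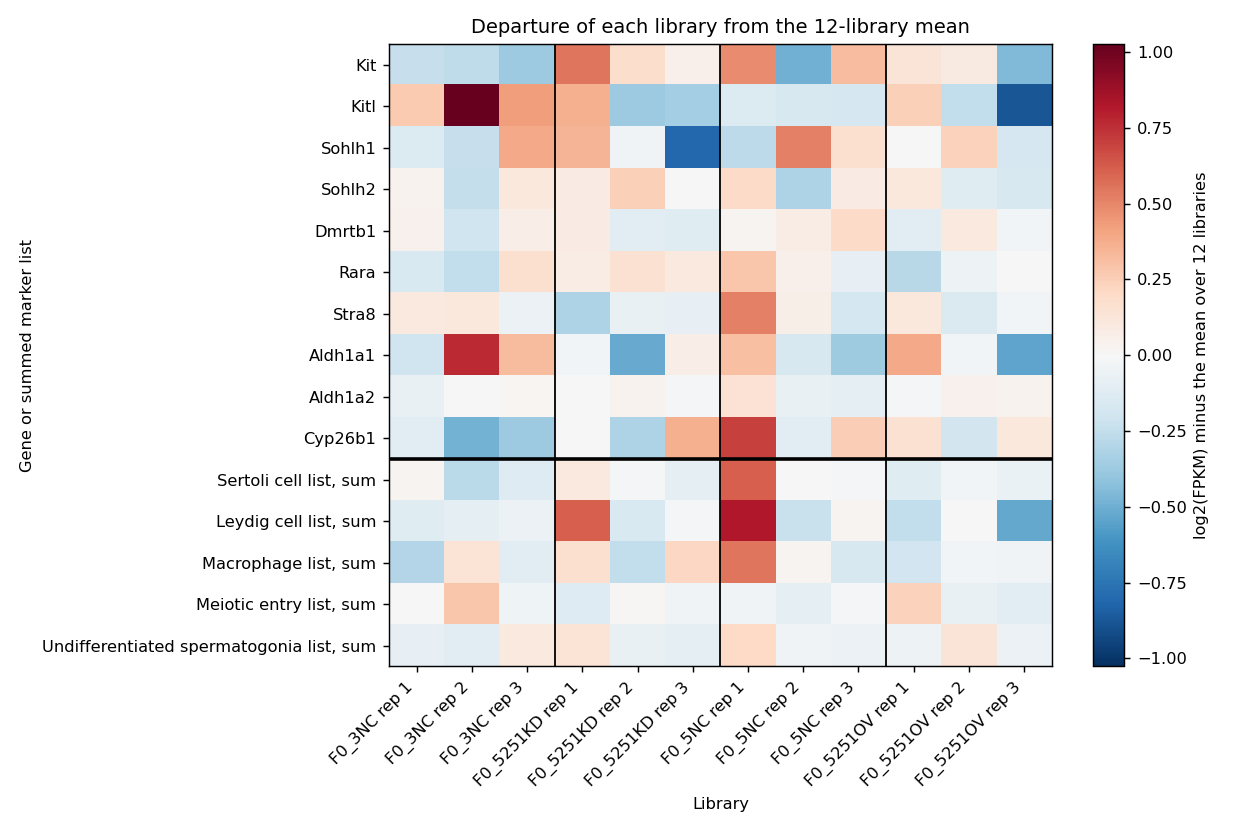
Departure of each library (columns, grouped as F0_3NC, F0_5251KD, F0_5NC, F0_5251OV) from the mean of the 12 libraries, in log2 of FPKM, for the 10 genes (upper rows) and for 5 summed marker lists (lower rows). Red is above and blue below the mean. Kit and the Leydig cell sum are both red in F0_5251KD replicate 1 and F0_5NC replicate 1, Cyp26b1 and the Sertoli cell sum in F0_5NC replicate 1, and Kitl and Aldh1a1 in F0_3NC replicate 2, while Aldh1a2 stays close to white.

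Genes with the same course over the 12 libraries were looked for by the root mean square difference of standardised log2 CPM, over 11704 genes whose mean reached 5 CPM. The genes nearest to Kit were Fam181b (0.337), Thrsp (0.35) and Agt (0.384), where the median gene was at 1.47. Agt, which encodes angiotensinogen, had 239.45 FPKM in F0_5251KD replicate 1 and 223.09 in F0_5NC replicate 1, and 84.57 to 158.01 FPKM in the rest. Nearest to Stra8 were Mettl5 (0.476), Sept6 (0.482) and Slc41a2 (0.559), and nearest to Aldh1a1 were Snx2 (0.413), Mzt1 (0.455) and Zc3h12c (0.461), with medians over genes of 1.43 and 1.42.

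The wider retinoic acid pathway was followed with 18 further genes for carriers, retinol and retinal enzymes, degrading enzymes and receptors, of which 16 passed the filter and Cyp26c1 and Crabp2 were too low. No gene was called in any comparison. After knockdown 10 were higher and 6 lower, with a median log2 fold change of 0.23, between Rarb (-0.55, SE 0.341), a receptor, and Cyp26a1 (0.42, SE 0.32), a degrading enzyme. The median was 0.11 without F0_3NC replicate 2, 0.11 without F0_5251KD replicate 1 and 0.13 without F0_5251KD replicate 3. With overexpression 7 were higher and 9 lower (median -0.04), and the highest value was that of Rxrg (0.20, SE 0.419), a partner receptor. Between the controls 7 were higher and 9 lower in F0_3NC (median -0.21), and the highest value was again that of Rxrg (0.40).

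At an unadjusted p under 0.05 there were 6 of these 16 genes between the controls, and all 6 were lower in F0_3NC, where 5.47% of all genes were lower by the same rule. Among them were the retinoic acid carrier Crabp1 (-0.64), the retinal reductase Dhrs3 (-0.63), the retinal dehydrogenase Aldh1a3 (-0.58), the receptor Rxra (-0.48) and the retinol transporter Stra6 (-0.39), with edgeR adjusted p-values of 0.316 to 0.419. F0_5NC replicate 1 had the highest value of the 12 libraries for Crabp1, Dhrs3, Aldh1a3 and Stra6. Dhrs3, for example, measured 8.87 FPKM there, 4.83 and 5.84 FPKM in the other F0_5NC libraries and 3.42 to 4.49 FPKM in F0_3NC. Without that library 0 of the 16 had an unadjusted p under 0.05.

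**Figure D4:**
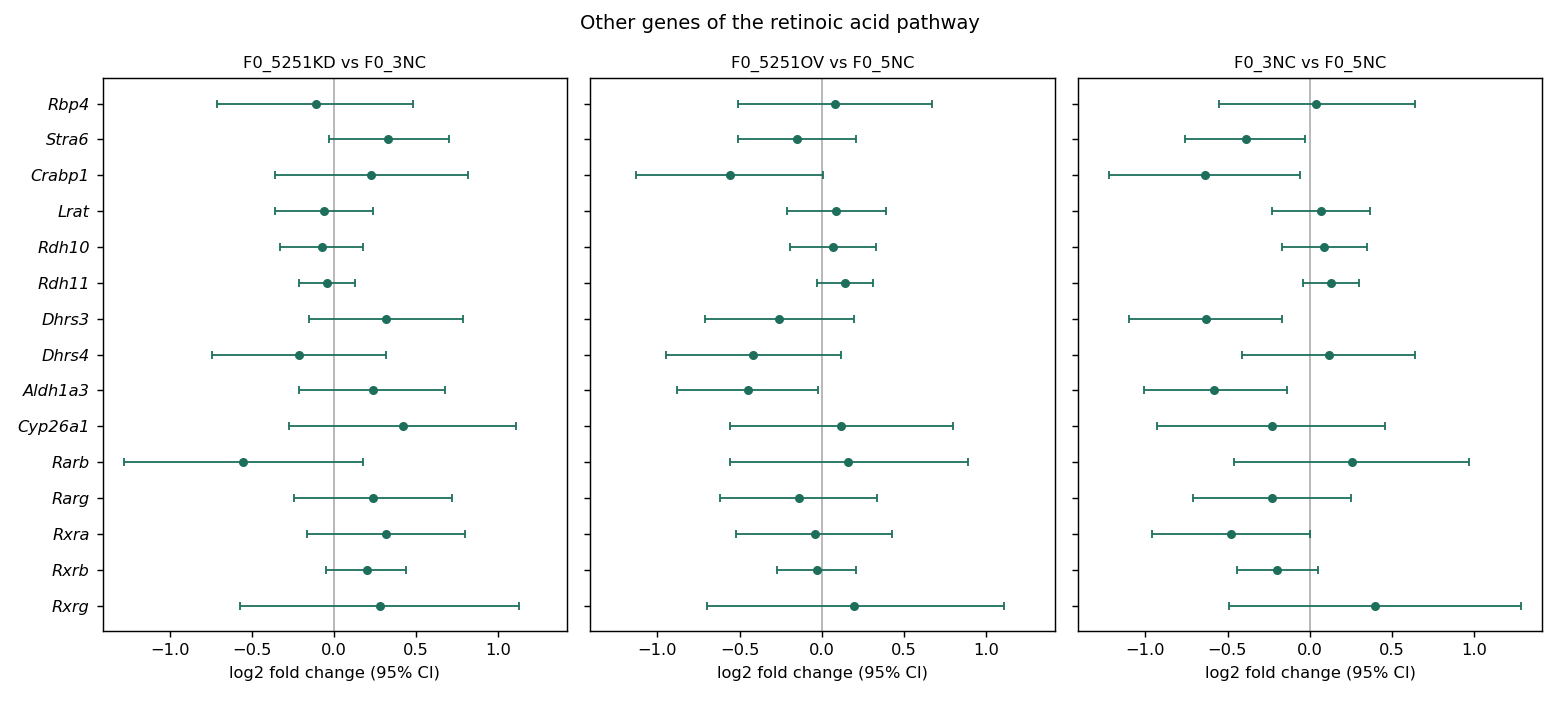
Log2 fold change (horizontal axis) with its 95% confidence interval for 15 other genes of the retinoic acid pathway in 3 comparisons, ordered from carriers through enzymes to receptors. Between the controls, the intervals of Crabp1, Dhrs3, Aldh1a3 and Stra6 lie below 0 and that of Rxra reaches it, and no gene was called in any panel.

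The spermatogonial states on either side of the KIT and retinoic acid step were also measured. Of 17 genes of undifferentiated spermatogonia, 15 were tested and none was called. After knockdown 6 were higher and 9 lower (median -0.02), from Utf1 (-0.62, SE 0.464) to Nanos3 (0.60, SE 0.521), which is an RNA-binding factor. With overexpression 6 were higher and 9 lower (median -0.05), from Lhx1 (-0.85, SE 0.26) to Eomes (1.29, SE 0.421), both transcription factors of stem cells. Eomes had means of 0.193 FPKM in F0_5NC, 0.457 in F0_5251OV, 0.447 in F0_3NC and 0.39 in F0_5251KD. Between the controls 7 were higher and 8 lower (median -0.01), from Nanos3 (-0.65) to Eomes (1.2), which again had its low level in F0_5NC.

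Of 10 other genes of differentiating spermatogonia, of which Dmrt1 also stands in the Sertoli cell list, 3 were higher and 7 lower after knockdown (median -0.15), from the cyclin Ccnd1 (-0.28, SE 0.221) to the homeobox gene Rhox13 (0.14, SE 0.239). Without F0_3NC replicate 2 the median was -0.01, and without F0_5251KD replicate 3 it was 0.01. With overexpression 5 were higher and 5 lower (median -0.01), from Prdm1 (-1.14, SE 0.734), at a mean of 0.107 FPKM or less in every group, to Dazl (0.12, SE 0.152). Between the controls 5 were higher and 5 lower (median 0.01), from the cyclin Ccnd2 (-0.58) to the germ cell RNA-binding gene Dazl (0.23).

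The entry into meiosis, which STRA8 helps to start, was followed with 16 genes. Their summed level was 721, 879 and 698 FPKM in the F0_3NC libraries against 656, 726 and 702 FPKM after knockdown, and 702, 675 and 716 FPKM in the F0_5NC libraries against 850, 683 and 670 FPKM with overexpression, so F0_3NC replicate 2 and F0_5251OV replicate 1 stood above the rest. After knockdown 3 were higher and 13 lower, with a median of -0.20 against -0.004 over all genes, from Mei4 (-0.68, SE 0.472), a factor of meiotic recombination at 0.22 FPKM or less, to Rec8 (0.06, SE 0.142), a meiotic cohesin. Without F0_3NC replicate 2, 2 were higher and 14 lower, with a median of -0.08. With overexpression 11 were higher and 5 lower (median 0.07), from Spo11 (-0.32, SE 0.133), the enzyme that cuts DNA for recombination, to Meioc (0.37, SE 0.161), which holds germ cells in meiosis. Without F0_5251OV replicate 1, 7 were higher and 9 lower, with a median of -0.03. Between the controls 14 were higher and 2 lower in F0_3NC (median 0.10), from Mei1 (-0.12) to Hormad1 (0.32). Without F0_3NC replicate 2, 12 were higher and 4 lower, with a median of 0.06. None of the 16 was called in any of these comparisons, and 0, 2 and 1 of them had an unadjusted edgeR p under 0.05, against 4.74%, 8.77% and 11.9% of all genes.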

How the data were processed

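The authors enriched messenger RNA from total testis RNA, sequenced it and aligned it to reference genes with SOAPaligner 2.20, per the study's methods. Per the labels the build was mm10. No strand-marking step is named. The table deposited by the authors holds an estimated count and an FPKM value for each of 20718 genes and 12 libraries. The study's methods call the second measure RPKM, and its tool is not given in sources used here. Of the estimated counts 12.0% were not whole, and 18 further per-sample columns, whose names fit none of the 12 libraries, were left aside. None of the 10 genes shares exons with another gene of GENCODE M21.

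Estimated counts were rounded and tested by the 2-sided quasi-likelihood test of edgeR 4.0.16 (R 4.3.3) after filterByExpr and TMM scaling (12 libraries in 4 groups, 8 residual degrees of freedom). Alternatives used DESeq2 1.42.0, upper-quartile scaling, no filter or a filter of 1 CPM in 3 libraries, limma 3.58.1 on log2(FPKM + 1) or log2(FPKM + 0.1), fits of only the groups compared, a replicate block, counts pooled per group (adjusted p up to 0.001 and a log2 ratio of at least 1), and the omission of each library. Leaving out 3 libraries together was chosen after seeing the data. The scripts were tested on simulated data. With 15431383 to 16355720 counts per library, counting error was 0.93% to 13.3% of the mean count of the 10 genes, and it covers counting only.

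The 10 genes and all gene lists were chosen with earlier results of these data known. From the lists, genes past the threshold and the largest and smallest fitted values of each comparison were named, and for Kit, Stra8 and Aldh1a1 the 3 genes nearest in course. A gene that this rule names is left out of the text and figures.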

Additional observations from a re-analysis of the deposited data

How the results depend on the processing

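None of the 10 genes was called in any comparison under any alternative. Apart from pooled counts, the smallest adjusted p was 0.134 (Kitl between the controls, DESeq2). Pooled counts, in which a group is 1 sample and only counting error is measured, gave an adjusted p of 0.001 or less for 4 of the 10 after knockdown (Aldh1a1, Cyp26b1, Kit and Kitl), 3 with overexpression (Cyp26b1, Dmrtb1 and Kit) and 5 between the controls (Aldh1a1, Cyp26b1, Dmrtb1, Kit and Kitl), each short of a log2 ratio of 1 in size. Among all genes, pooled counts gave an unadjusted p under 0.05 for 6797 of 19982, 7765 of 20007 and 8598 of 20006, respectively. The share of all genes at an adjusted p of 0.001 or less is not given here, so these member counts have no background beside them. Of 680 values of the 10 genes under alternatives, 626 kept their direction and 54 changed it. With pooled counts, Dmrtb1 after knockdown became 0.006, Sohlh2 between the controls -0.042 and Aldh1a2 between the controls -0.023, and Eomes was called with overexpression (1.255) and between the controls (1.172). Other than by leaving out 1 library, Sohlh2 between the controls became -0.004 with DESeq2 and with no filter, -0.013 with upper-quartile scaling, -0.008 with the 1 CPM filter, -0.021 and -0.023 with limma on log2(FPKM + 1) and log2(FPKM + 0.1), and -0.007 with only the groups compared. Aldh1a2 between the controls became -0.012 in both limma fits, and the difference of effects of Sohlh1 became -0.023 and -0.049 in them. Without the 3 libraries that stand apart, Rara and Stra8 between the controls became 0.038 and 0.071, the difference of effects of Sohlh1 and Dmrtb1 became -0.017 and -0.022, that of Sox3 became -0.154, and Rec8 after knockdown became -0.075. The cause was not tested.

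Leaving out 1 library moved the following values through 0. After knockdown, Sohlh1 ranged from -0.341 to 0.23, Dmrtb1 from -0.121 to 0.051, Aldh1a2 from -0.017 to 0.042 and Rec8 from -0.086 to 0.184. With overexpression, Kitl ranged from -0.306 to 0.217, Sohlh1 from -0.297 to 0.126, Sohlh2 from -0.126 to 0.054, Stra8 from -0.26 to 0.023, Aldh1a1 from -0.15 to 0.276, Rxrg from -0.102 to 0.711 and Dazl from -0.008 to 0.212. Between the controls, Sohlh1 ranged from -0.441 to 0.081, Sohlh2 from -0.107 to 0.118, Stra8 from -0.191 to 0.09 and Aldh1a2 from -0.009 to 0.054. In the difference of effects, Sohlh1 ranged from -0.232 to 0.339, Dmrtb1 from -0.049 to 0.15, Stra8 from -0.244 to 0.027 and Prdm1 from -0.249 to 1.404. Kit after knockdown stayed between 0.402 and 0.642 and Kitl between -0.971 and -0.458.

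Over all genes, calls after knockdown, with overexpression, between the controls and in the difference numbered 4, 0, 54 and 0 in edgeR and 19, 27, 131 and 31 in DESeq2. limma called 2, 0, 42 and 1 with 1 added and 0, 0, 37 and 0 with 0.1 added, and pooled counts called 143, 191 and 307. With no filter, and with only the groups compared, 3 genes were called with overexpression. Without the 3 libraries that stand apart 28 were called between the controls. Same-numbered libraries did not deviate together (18 pairs, correlations from -0.242 to 0.161, 5 of 12 libraries nearest to their own number), and the replicate block called 2, 0, 50 and 0 genes and none of the 10.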

Other observations

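Later germ cells and the other cell types of the organ were followed with the same fit, and apart from Spink8, an epididymal protease inhibitor that was called between the controls (log2 fold change -3.79, edgeR adjusted p = 0.0235), no listed gene was called. Spink8 lost that call without any 1 of the F0_3NC libraries, without F0_5NC replicate 2 or 3, and with limma on log2(FPKM + 1). After knockdown and with overexpression respectively, 3 and 8 of 10 spermatocyte genes were higher, with medians of -0.05 and 0.05 on the log2 scale. Of 10 round spermatid genes, 3 and 10 were higher (medians -0.03 and 0.09; 0 and 8 without the 3 libraries that stand apart), and 10 of 10 were higher in F0_3NC than in F0_5NC, a comparison that shares its controls with both. Of 15 Sertoli cell genes, 9 and 1 were higher (medians 0.07 and -0.15), and of 9 Leydig cell genes, 7 and 0 (medians 0.31 and -0.22). These sums were highest in single libraries, F0_5NC replicate 1 (Sertoli 1552, Leydig 4528 FPKM) and F0_5251KD replicate 1 (Leydig 3914 FPKM). Without F0_5NC replicate 1, 8 of the 15 Sertoli genes were higher with overexpression (median 0.01), and without F0_5251KD replicate 1, 6 of the 9 Leydig genes were higher after knockdown (median 0.06). Smooth muscle (6 and 1 of 6), endothelium (6 and 0 of 6) and macrophages (5 and 1 of 7) had medians of 0.08 and -0.42, 0.25 and -0.18, and 0.13 and -0.34, and without the 3 libraries the macrophage medians were 0.29 and -0.02. Epididymal genes, of which 3 were tested, had medians of -0.87 and -0.82, and -3.79 between the controls, where Rnase10 had -0.14.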
